A study of Mus musculus with 31 samples.

Results

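The miR-15/16 family was followed in the lungs of smoke-exposed and room-air mice through 5 members on the array: mmu-miR-15a-5p, mmu-miR-15b-5p, mmu-miR-16-5p, mmu-miR-195-5p and mmu-miR-497-5p, written below without the species prefix. The members were taken by name, with every probe that carries the name, and they are 5 of the 650 miRNAs on the array and 5 of the 273 that passed the detection filter. All 5 were detected on all 31 arrays, so none entered through 1 group. The study used female mice of the inbred strain BALB/c exposed to room air or to cigarette smoke over 4, 6, 8 or 12 weeks, as a model of chronic obstructive pulmonary disease. Total RNA of the whole lung was hybridised to 1-colour Agilent miRNA arrays. Smoke at 12 weeks has 3 arrays, and the other 7 groups have 4 each. The labels name no mutation or transgene in any group, and state neither the animals' age nor the smoke dose. They also do not say that each array is a separate animal, so the p-values rest on the spread among these arrays and that spread could be technical.

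A miRNA guides the silencing complex to messenger RNAs that pair with its seed, bases 2 to 8 counted from the 5′ end. The miR-15/16 family shares 1 seed and is best known for restraining the cell cycle: cyclins and their kinases are among its targets, together with the survival factor Bcl2. The members are processed from short clusters of hairpins on different chromosomes. miR-15a and miR-16-1 are known as a pair lost in chronic lymphocytic leukaemia, and miR-195 for its rise in heart muscle as the cells stop dividing after birth.

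The mature sequences show what the members share and where they part. They are printed 5′ to 3′ from RefSeq (GRCm38.p6), which matched all 5 by name (miR-195-5p as miR-195a-5p and miR-497-5p as miR-497a-5p), and the capitals mark the seed. miR-322-5p, with the same seed, and miR-503-5p, its cluster neighbour with another seed, are shown for comparison.
miR-15a-5p: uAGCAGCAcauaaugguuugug
miR-15b-5p: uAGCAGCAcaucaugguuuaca
miR-16-5p: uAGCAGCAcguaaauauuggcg
miR-195-5p: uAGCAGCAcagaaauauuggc
miR-497-5p: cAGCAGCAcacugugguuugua
miR-322-5p: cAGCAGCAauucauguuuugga
miR-503-5p: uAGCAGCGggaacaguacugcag

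The seed AGCAGCA stood in 10 of the 1679 mature names of the RefSeq table, and 6 of these were on the array: the 5 members and miR-322-5p. Sequence likeness did not follow the clusters. miR-16-5p and miR-195-5p, from different clusters, had the same base at 19 of 21 positions and differed by G10A and U11G, counted from the 5′ end with the base of miR-16-5p first. The neighbours miR-195-5p and miR-497-5p shared 12 of 21 positions. miR-15a-5p and miR-15b-5p, again from different clusters, shared 18 of 22, with A12C, G20A, U21C and G22A from miR-15a-5p to miR-15b-5p. miR-497-5p stood closer to miR-15a-5p, with 17 of 22 positions, than to miR-195-5p.

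There are 3 clusters. The hairpins Mir497 (chr11:70234717-70234800) and Mir195a (chr11:70235042-70235135) lie on the plus strand, 241 bases apart in GRCm38.p6, and the RefSeq gene table places no protein-coding gene over them. Mir15a (chr14:61632027-61632110) and Mir16-1 (chr14:61631880-61631972) lie 54 bases apart on the minus strand, within the span of the long non-coding RNA gene Dleu2. Mir15b (chr3:69009772-69009835) and Mir16-2 (chr3:69009902-69009996) lie 66 bases apart on the plus strand, within the span of Smc4, a condensin subunit gene. Mature miR-16-5p has the same sequence from both loci, so its array signal sums Mir16-1 and Mir16-2.

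The values below are log2 of the background-subtracted scanner signal, with each array's 75th percentile set to 0. That percentile lay between 1018 and 3725 signal units before scaling, and 3936 to 5170 spots per array were above background; the number of arrays limits the precision. Levels are compared within a miRNA only, since different probes bind with different strength. A change means a limma test across all 273 miRNAs with a Benjamini-Hochberg adjusted p of 0.05 or less. The median difference of all 273, smoke minus control, was 0.17 at 4 weeks, 0.01 at 6, −0.05 at 8, −0.08 at 12 and −0.0048 on average. In the 4 weeks smoke group, arrays 2 and 3 stood apart from the other arrays on the first principal component, which holds 47.5% of the variance (9.12 and 4.84), and 4 weeks control array 4 (−5.28) and 8 weeks smoke arrays 3 and 2 (−4.26 and −3.84) lay at its other end. The 4 and 8 weeks values of the members are given below with all arrays and also without the smoke arrays named here. Smoke arrays always occupied the first line of positions on a slide and control arrays the second, with the column set by the duration, so smoke and array position cannot be told apart.

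**Figure D1:**
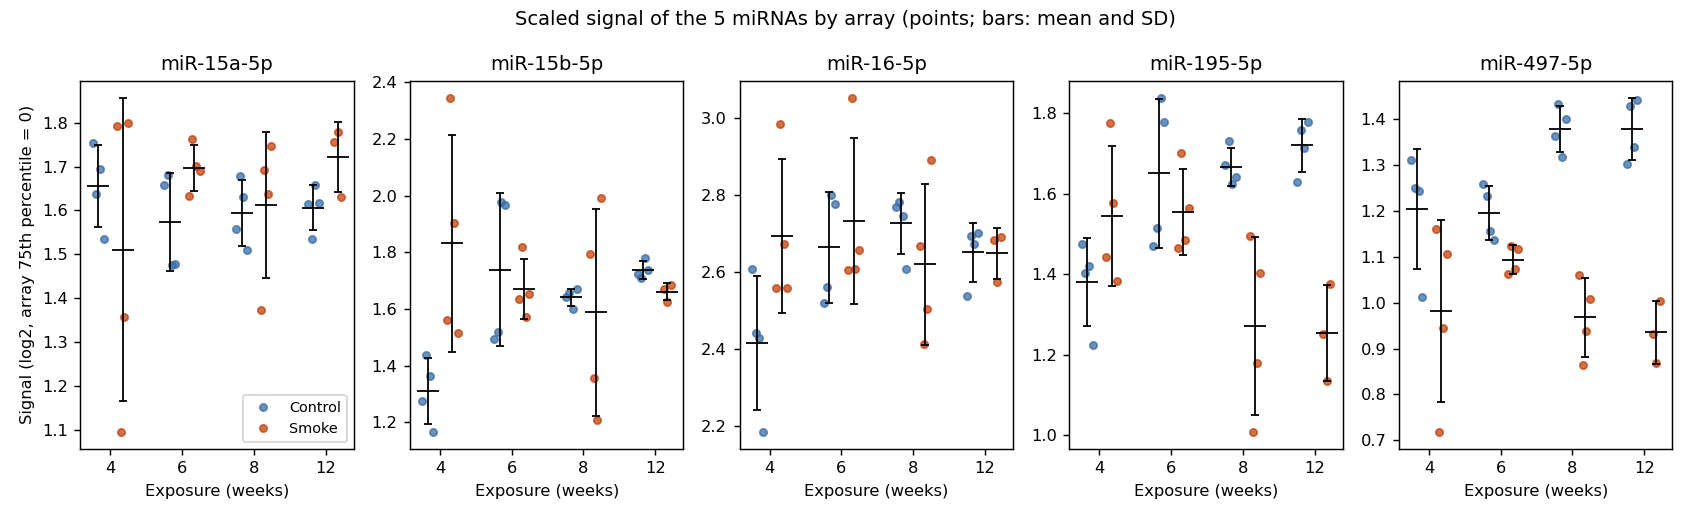
Scaled signal (log2, array 75th percentile set to 0) of each miRNA on each array against weeks of exposure; points are arrays, the long tick is the group mean and the bar is 1 SD, with control in blue and smoke in orange. The miR-497-5p groups do not overlap at 6, 8 and 12 weeks, and the miR-195-5p groups do not overlap at 8 and 12 weeks, with smoke lower in each case.

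The cluster of miR-195 and miR-497 was lower in smoke-exposed lung, and the decrease was measured at 8 and 12 weeks in both members. Averaged over the 4 durations, miR-497-5p fell by 0.29 ± 0.04 on the log2 scale (SE, 15 smoke and 16 control arrays), a level 18.5% below control (control over smoke 1.23-fold). miR-195-5p fell by 0.20 ± 0.05, which is 12.9% below control (1.15-fold). The 3 members of the miR-15 and miR-16 clusters had averaged differences between 0.03 and 0.08, and none passed the test. Without 4 weeks smoke arrays 2 and 3, the averaged difference of miR-15a-5p was 0.0994 and passed (adjusted p 0.0394). In all, 2 of 5 members changed in the averaged comparison, both lower, where 27.8% of the 273 miRNAs changed and 12.1% were lower. Fewer cells of a type and less RNA per cell cannot be told apart in whole-lung RNA.

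**Figure D2:**
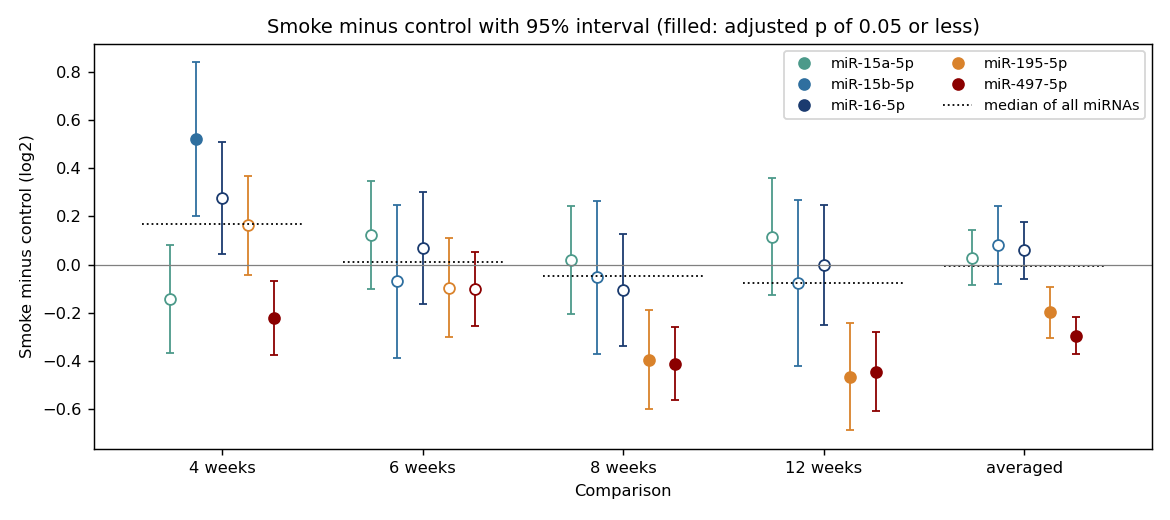
Smoke minus control (log2) of each miRNA at each duration and averaged over durations; bars are 95% intervals of the limma fit, filled points have an adjusted p of 0.05 or less, and dotted lines are the median of all 273 miRNAs. miR-497-5p and miR-195-5p lie below the other 3 miRNAs at 8 and 12 weeks and in the average, and at 4 weeks miR-15b-5p is highest, at 0.52.

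miR-497-5p is the upstream hairpin of its cluster. At 8 weeks its levels in arrays 1 to 4 were 1.36, 1.43, 1.32 and 1.40 in control lung and 1.06, 0.86, 0.94 and 1.01 in smoke-exposed lung. At 12 weeks the controls read 1.30, 1.43, 1.34 and 1.44, and the 3 smoke arrays 0.93, 0.87 and 1.00. At both durations the highest smoke array lay well under the lowest control. The differences were −0.41 ± 0.07 at 8 weeks (adjusted p 0.000352) and −0.44 ± 0.08 at 12 weeks (adjusted p 0.000419). They correspond to levels 24.8% and 26.5% below control. Every smoke array lay below every control array for 12.1% of the 273 miRNAs at 8 weeks and for 25.6% at 12 weeks, so a gap without overlap was common among all miRNAs at 12 weeks. With each array divided by a percentile over all probes, the calls ended at 8 weeks (−0.39, adjusted p 0.165) and 12 weeks (−0.30, adjusted p 0.36), both still lower in smoke. They also ended with normexp background correction (adjusted p 0.195 and 0.148), and at 12 weeks without scaling (−0.12, adjusted p 0.971). Without 8 weeks smoke arrays 2 and 3 the 8 weeks difference was −0.34 (adjusted p 0.0123).

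At 6 weeks the miR-497-5p controls were 1.26, 1.23, 1.16 and 1.14, and the smoke arrays were 1.06, 1.12, 1.07 and 1.12. The smoke arrays again all lay below the controls, a pattern found in 3.3% of all miRNAs at that duration, but the difference of −0.10 ± 0.07 did not pass the test (adjusted p 0.489). With limma 0 of 5 members passed at 6 weeks, and 0 had an unadjusted p under 0.05, where 8.06% of all miRNAs passed. At 4 weeks the controls were 1.31, 1.25, 1.24 and 1.01 and the smoke arrays 1.16, 0.72, 0.94 and 1.11. These groups overlapped through control array 4, the lowest control. The difference of −0.22 ± 0.07 passed the test (adjusted p 0.0238), while 11.4% of all miRNAs were lower at 4 weeks. Measured from the median of all miRNAs at 4 weeks, it was −0.39. The call ended without smoke arrays 2 and 3 (−0.07, adjusted p 0.634). With normexp the difference was −0.0629 (adjusted p 0.661). The call was also lost when arrays were scaled by all probes (−0.32, adjusted p 0.181) or not scaled (−0.30, adjusted p 0.748), and with no detection filter (adjusted p 0.0548), with only the 4 weeks arrays (adjusted p 0.229) or without the 3 arrays highest in muscle miRNAs (adjusted p 0.0633). It also ended when any of control arrays 1, 2 or 3 or smoke arrays 2 or 3 was left out alone, with adjusted p between 0.0503 and 0.156.

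Over the whole exposure, 15 of 15 smoke arrays had less miR-497-5p than the control mean of their duration, and 8 lay below all 16 controls. The averaged decrease passed the test (adjusted p 1.18e-06), though not without scaling between arrays (−0.44, adjusted p 0.0856). For no miRNA of the 273 did every smoke array lie below every control array of all durations. The order of the 8 group means ran from 8 weeks control (1.38) and 12 weeks control (1.38) through 4 weeks control (1.20) and 6 weeks control (1.20) to 6 weeks smoke (1.09), 4 weeks smoke (0.98), 8 weeks smoke (0.97) and 12 weeks smoke (0.94). All 4 control means therefore ranked above all 4 smoke means. How many of the 273 miRNAs share this order, or the 15 of 15 smoke arrays below the control mean, was not counted. Of the 7 neighbouring pairs in this order, 2 differed by more than the larger SD of the pair: 12 weeks control above 4 weeks control, and 6 weeks control above 6 weeks smoke. Only the last of these did not overlap.

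miR-195-5p, the downstream hairpin, was also low in late smoke but took another course early. At 8 weeks the controls were 1.67, 1.73, 1.62 and 1.64 and the smoke arrays 1.50, 1.01, 1.18 and 1.40. At 12 weeks the controls were 1.63, 1.76, 1.72 and 1.78, and the smoke arrays 1.25, 1.14 and 1.38. No smoke array reached the lowest control at either duration. The member fell by 0.40 ± 0.10 at 8 weeks (adjusted p 0.0079) and by 0.47 ± 0.11 at 12 weeks (adjusted p 0.00456), to levels 24.0% and 27.6% below control. With miR-497-5p this makes 2 of 5 members changed at each of these durations, against 11% of all miRNAs at 8 weeks and 9.52% at 12 weeks. Lower in smoke were 7.33% and 4.4%. The 8 weeks call ended without smoke array 2 (−0.31, adjusted p 0.0531), the lowest of its group, and in a fit of the 8 weeks arrays alone (adjusted p 0.0820). Without both arrays 2 and 3, which were the lowest here and stand apart, it was −0.22 (adjusted p 0.217). With normexp background correction both calls ended (adjusted p 0.354 and 0.166), and so did the 12 weeks call when arrays were scaled by all probes (−0.32, adjusted p 0.0757) or not at all (−0.15, adjusted p 0.956).

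At 4 weeks the miR-195-5p controls read 1.48, 1.40, 1.42 and 1.22, and the smoke arrays 1.44, 1.78, 1.58 and 1.38. The smoke arrays that stand apart, 2 and 3, were the highest here, whereas they were the lowest for miR-497-5p. The difference was 0.16 ± 0.10 (adjusted p 0.178), which is −0.0053 when measured from the median of all miRNAs. Without these 2 arrays it was 0.03 (adjusted p 0.949). At 6 weeks the controls were 1.47, 1.52, 1.84 and 1.78 and the smoke arrays 1.47, 1.70, 1.49 and 1.57. The groups overlapped, and the difference was −0.10 ± 0.10 (adjusted p 0.658). Of the 15 smoke arrays, 10 lay below the control mean of their duration and 3 below the controls of all durations. Averaged over durations the decrease passed the test (adjusted p 0.00366). Without scaling between arrays (adjusted p 0.0986) or with normexp (−0.17, adjusted p 0.339) it did not.

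The smoke effect on miR-195-5p differed between durations in limma's moderated F test (adjusted p 0.0218), which 7.33% of all miRNAs passed. It was the 1 member to pass. The adjusted p was 0.0761 for miR-497-5p, 0.111 for miR-15b-5p, 0.223 for miR-16-5p and 0.381 for miR-15a-5p. The miR-195-5p call ended without 4 weeks control array 4 (adjusted p 0.0518) and without 4 weeks smoke arrays 2 and 3 (adjusted p 0.0832). Without those smoke arrays miR-497-5p was the member that passed (adjusted p 0.0104). In the order of its 8 group means, from 12 weeks control (1.72) down to 12 weeks smoke (1.25), 0 of 7 neighbours differed by more than the larger SD. The same held for miR-15a-5p, miR-15b-5p and miR-16-5p.

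miR-16-5p, which comes from the clusters with miR-15a and with miR-15b, did not pass the test at any duration with the settings used here. At 4 weeks the controls read 2.61, 2.44, 2.43 and 2.19, and the smoke arrays 2.56, 2.98, 2.67 and 2.56. The smoke arrays overlapped with control array 1 alone, and the difference was 0.28 ± 0.11 (adjusted p 0.0509, 95% interval 0.05 to 0.51). This lies beside the threshold: leaving out 1 of 6 arrays brought the adjusted p to between 0.0298 and 0.0476. With normexp the difference was 0.435 and passed (adjusted p 0.0488), and without 4 weeks smoke arrays 2 and 3 it was 0.14 (adjusted p 0.606). It passed in 2 of 17 alternatives, with a lowest limma adjusted p of 0.0407. At 12 weeks the controls were 2.54, 2.69, 2.67 and 2.70 and the smoke arrays 2.68, 2.57 and 2.69. The means were 2.65 in both groups, and the difference was −0.0016 ± 0.12. At 6 weeks the controls were 2.52, 2.56, 2.80 and 2.78 and the smoke arrays 2.61, 3.05, 2.61 and 2.66. Smoke array 2 was the highest of all 31 arrays for this miRNA. At 8 weeks the controls were 2.77, 2.78, 2.75 and 2.61 and the smoke arrays 2.67, 2.41, 2.50 and 2.89, with smoke on both sides of the controls. The differences at 6 and 8 weeks were 0.07 ± 0.11 and −0.11 ± 0.11. Without 8 weeks smoke arrays 2 and 3 the latter was 0.0537 (adjusted p 0.849). The averaged difference was 0.06 ± 0.06, with a 95% interval from −0.06 to 0.18 (adjusted p 0.472).

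miR-15b-5p was higher in smoke at 4 weeks. Its controls read 1.28, 1.44, 1.36 and 1.17, and the smoke arrays 1.56, 2.35, 1.90 and 1.51. Each smoke array exceeded each control, as was the case for 23.8% of all miRNAs at 4 weeks, and arrays 2 and 3 were far above the other smoke arrays. The difference of 0.52 ± 0.15 passed the test (adjusted p 0.0165), and measured from the median of all miRNAs it was 0.35. Together with miR-497-5p, 2 of 5 members changed at 4 weeks, in opposite directions, where 39.6% of all miRNAs changed and 28.2% were higher. Without smoke arrays 2 and 3 the call ended (0.23, adjusted p 0.472). It also ended without control array 4 (0.47, adjusted p 0.0585), smoke array 2 (0.35, adjusted p 0.102) or smoke array 3 (0.496, adjusted p 0.0507).

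At later durations miR-15b-5p showed no change that passed. The 6 weeks controls were 1.49, 1.52, 1.98 and 1.97, a group split into a low and a high pair, and the smoke arrays were 1.64, 1.82, 1.57 and 1.65. At 8 weeks the controls lay close together, at 1.64, 1.65, 1.60 and 1.67, while the smoke arrays were 1.80, 1.36, 1.21 and 1.99. The SD was 0.03 in control and 0.37 in smoke. Without smoke arrays 2 and 3, the low pair, the 8 weeks difference was 0.252 (adjusted p 0.360). At 12 weeks the controls were 1.72, 1.71, 1.78 and 1.74 and the smoke arrays 1.67, 1.63 and 1.69. These groups did not overlap, but the difference of −0.08 ± 0.17 did not pass the test (adjusted p 0.824). The fit uses 1 spread for all groups. Over the 17 alternatives the lowest limma adjusted p of this difference was 0.0651. The direction of the difference turned under 4 alternatives. The averaged difference was 0.08 ± 0.08 (95% interval −0.08 to 0.24, adjusted p 0.477).

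miR-15a-5p varied most within the 4 weeks smoke group. Its 4 weeks controls read 1.75, 1.64, 1.70 and 1.54, and the smoke arrays 1.79, 1.10, 1.36 and 1.80. Arrays 2 and 3, the highest for miR-15b-5p, miR-16-5p and miR-195-5p, were the lowest for miR-15a-5p, as they were for miR-497-5p. The difference was −0.14 ± 0.11 (adjusted p 0.284) and 0.14 without these arrays (adjusted p 0.397). At 6 weeks the controls were 1.66, 1.68, 1.47 and 1.48 and the smoke arrays 1.63, 1.76, 1.70 and 1.69. At 8 weeks the controls were 1.56, 1.68, 1.63 and 1.51 and the smoke arrays 1.37, 1.69, 1.64 and 1.75. At 12 weeks the controls were 1.62, 1.53, 1.66 and 1.62 and the smoke arrays 1.76, 1.78 and 1.63. The groups overlapped at all 4 durations. The differences were 0.12 ± 0.11, 0.02 ± 0.11 and 0.12 ± 0.12 at 6, 8 and 12 weeks, and 0.03 ± 0.06 on average (95% interval −0.09 to 0.14, adjusted p 0.739). Without 8 weeks smoke arrays 2 and 3 the 8 weeks value was −0.0338 (adjusted p 0.918).

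The clusters were then set against each other within each array. Each member was centred on its own mean over the 16 controls, and the mean of miR-15a-5p, miR-15b-5p and miR-16-5p was taken from the mean of miR-195-5p and miR-497-5p. A factor that multiplies a whole array cancels in this difference. It lay between −0.12 and 0.11 on the 16 control arrays (median −0.0080) and between −0.51 and −0.16 on the 15 smoke arrays (median −0.23). All 15 smoke arrays were thus below all 16 controls. Since the members were chosen with results known, this is a description with no test. How often such a contrast of other miRNAs separates all arrays, or those of a duration, was not counted. Under quantile scaling 9 of 15 smoke arrays, and in the deposited table of log2 values 11 of 15, lay below every control.

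By duration, the contrast between clusters, smoke minus control, was −0.25 at 4 weeks, −0.14 at 6, −0.36 at 8 and −0.47 at 12. The within-group SD was 0.01 in control and 0.10 in smoke at 4 weeks, 0.04 and 0.06 at 6, 0.05 and 0.15 at 8, and 0.06 and 0.09 at 12. Smoke and control arrays did not overlap at any of the 4 durations. On the scale used here, the 4 weeks separation is made differently from the later ones. At 4 weeks the mean of miR-195-5p and miR-497-5p differed from control by −0.03, since 0.16 for miR-195-5p and −0.22 for miR-497-5p nearly cancel, and the mean of miR-15a-5p, miR-15b-5p and miR-16-5p by 0.22. At 6 weeks these means were −0.10 and 0.04, at 8 weeks −0.40 and −0.05, and at 12 weeks −0.45 and 0.01. On this scale the contrast thus lay mostly on the side of miR-15 and miR-16 at 4 weeks. At 8 and 12 weeks it lay mostly on that of miR-195 and miR-497. The side at 4 weeks depends on the scaling, and the median of all miRNAs was itself 0.17 there. Scaled by all probes, the 4 weeks differences were 0.06 for miR-195-5p and −0.32 for miR-497-5p. For miR-15a-5p, miR-15b-5p and miR-16-5p they were then −0.24, 0.42 and 0.18. With the scaling used here and without 4 weeks smoke arrays 2 and 3, the 4 weeks means were −0.02 and 0.17. All 13 remaining smoke arrays then lay below every control. Without 8 weeks smoke arrays 2 and 3 the 8 weeks means were −0.28 and 0.09, and the remaining 13 again lay below every control.

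**Figure D3:**
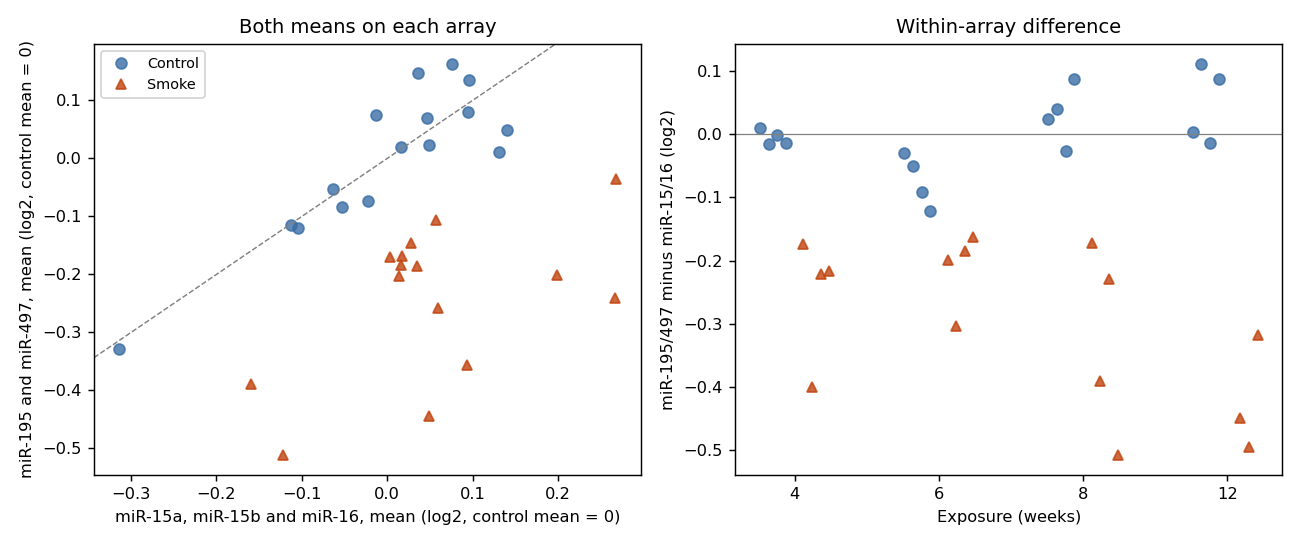
Left, the mean of miR-195-5p and miR-497-5p against the mean of miR-15a-5p, miR-15b-5p and miR-16-5p on each array (log2, control mean of each miRNA set to 0), with the line of equality dashed; right, their within-array difference by weeks of exposure. Circles are 16 control and triangles 15 smoke arrays, and on the right every smoke array, at −0.16 or less, lies under the lowest control, at −0.12.

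Pair by pair, the 6 pairs across the clusters had averaged smoke minus control differences of −0.38 to −0.23 for the miR-195 or miR-497 member minus the other. The pair within the miR-195 and miR-497 cluster had −0.10, and the 3 pairs among miR-15a-5p, miR-15b-5p and miR-16-5p had −0.02 to 0.05. Without 4 weeks smoke arrays 2 and 3 the 6 pairs had −0.36 to −0.24 and miR-497-5p minus miR-195-5p had −0.03. The near-identical pair miR-195-5p and miR-16-5p was among those that parted. Their within-array difference lay between −0.48 and −0.08 on smoke arrays (median −0.20) and between −0.12 and 0.10 on control arrays. On 11 of 15 smoke arrays it was below every control. It fell from control by 0.11, 0.16, 0.29 and 0.46 at 4, 6, 8 and 12 weeks, with the same −0.11 at 4 weeks without smoke arrays 2 and 3 and −0.27 at 8 weeks without smoke arrays 2 and 3 of that group. This pair had the lowest within-group SD of the 10 pairs, 0.08. How far the probes of these close sequences bind each other's target was not tested.

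The pair miR-497-5p and miR-15a-5p, which share 17 of 22 positions, had a within-array difference below every control on 12 of 15 smoke arrays. Its change from control was −0.08 at 4 weeks, −0.22 at 6, −0.43 at 8 and −0.56 at 12. Without the smoke arrays that stand apart it was −0.21 at 4 weeks and −0.31 at 8. miR-195-5p minus miR-15a-5p was 0.31 above control at 4 weeks, against −0.22, −0.41 and −0.58 later. The 4 weeks value rests on smoke arrays 2 and 3: without them it was −0.11, and all 6 pairs across the clusters were then below 0 at 4 weeks. Without 8 weeks smoke arrays 2 and 3 the 8 weeks value of this pair was −0.18. These pair values, like the contrast, carry no test. How many pairs of other miRNAs part in the same way was not counted.

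Each member is measured by a pair of probes, both detected on 31 arrays and with no spot saturated. The correlation of the 2 probes of a member over the 31 arrays lay between 0.960 and 0.990, as a description of probes that share each array. At 8 weeks the dimmer probes gave −0.43 for miR-497-5p and −0.44 for miR-195-5p, and at 12 weeks −0.43 and −0.50. For miR-15b-5p at 4 weeks the dimmer probe gave 0.52, the same as the brighter one. The sign of the difference was the same in both probes at every duration for every member, except for miR-16-5p at 12 weeks (−0.0016 and 0.02).

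Within slides, which hold both treatments, miR-497-5p was lower in smoke on each slide. The mean differences were −0.29, −0.42, −0.30 and −0.11 on slides 1 to 4, where slide 4 holds no 12 weeks smoke array, and 14 of 15 smoke arrays lay below the control of the same duration on the same slide. For miR-195-5p the slide differences were −0.18, −0.19, −0.26 and −0.10, with 11 of 15 arrays lower. miR-15a-5p, miR-15b-5p and miR-16-5p had slide differences on both sides of 0. The contrast between the clusters was −0.28, −0.39, −0.23 and −0.28 by slide.

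**Figure D4:**
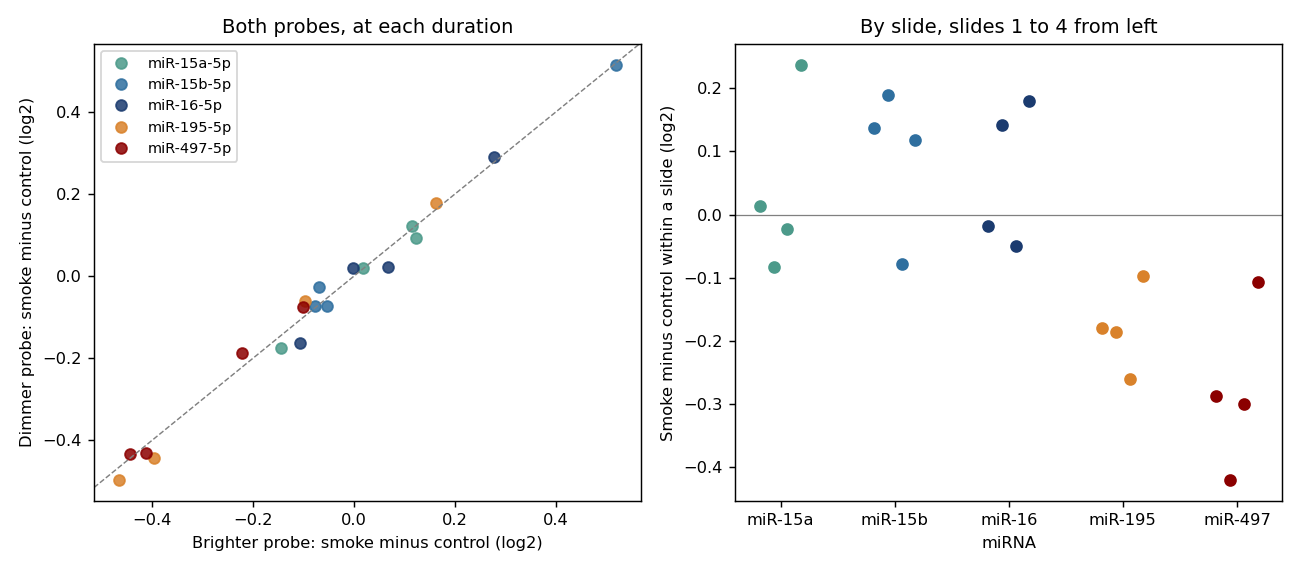
Left, smoke minus control (log2) by the dimmer probe against the brighter probe of each miRNA, 1 point per duration, with the line of equality dashed; right, smoke minus control within each of the 4 slides. The probe pairs lie along the line, from −0.50 to 0.52, and on the right all 8 values of miR-195 and miR-497 are below 0.

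Among control mice, duration moved no member past the moderated F test (adjusted p 0.0890 for miR-195-5p, 0.118 for miR-497-5p, 0.128 for miR-15b-5p, 0.164 for miR-16-5p and 0.947 for miR-15a-5p). Of all miRNAs 6.96% passed, and 3 members had an unadjusted p under 0.05. Between pairs of durations, miR-195-5p was higher in 12 weeks than in 4 weeks controls by 0.34 ± 0.10 (adjusted p 0.0435), where 12.1% of all miRNAs passed. No member passed in the other 5 control pairs or the 6 smoke pairs. The smoke groups gave adjusted p of 0.0809 for miR-195-5p and 0.449 or more for the other members in the F test, which 3.3% of all miRNAs passed; 1 member had an unadjusted p under 0.05. In both F tests more members passed under other scalings. For miR-195-5p, then, smoke minus control at 12 weeks sets a control mean of 1.72, the highest of the 4 control means, against a smoke mean of 1.25, the lowest of the 4.

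The other products of these hairpins and of the related Mir322 and Mir503 cluster on chromosome X form a list of 10 names, of which 7 were on the array and 4 passed the detection filter. With limma 0 of the 4 changed in any of the 8 comparisons, and 6 of the 32 tests had an unadjusted p under 0.05. miR-322-5p, which carries the family's seed, had an averaged difference of −0.05 ± 0.04 (95% interval −0.13 to 0.03, adjusted p 0.361). Its control means lay between 0.37 and 0.52 and its smoke means between 0.37 and 0.47, and these ranges overlap. Its partner strand miR-322-3p had −0.22 ± 0.10 (adjusted p 0.0883), and its neighbour miR-503-5p −0.09 ± 0.15 (adjusted p 0.687). miR-15b-3p, the partner strand of miR-15b-5p, had 0.36 ± 0.18 at 4 weeks (adjusted p 0.103) and 0.17 ± 0.09 on average (adjusted p 0.166). miR-15a-3p, miR-16-1-3p and miR-503-3p were detected on 0 arrays. The partner strands miR-16-2-3p, miR-195-3p and miR-497-3p were not analysed here.

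The profiles over the 8 group means differed between members in Pearson's r, given as a description over means that share arrays and scaling. It was 0.77 between miR-195-5p and miR-497-5p and 0.84 between miR-15b-5p and miR-16-5p. miR-15a-5p had −0.46 with miR-15b-5p and −0.19 with miR-16-5p, with each of which it shares a seed, and with miR-16-5p a cluster. Outside the family, the nearest profiles to miR-195-5p were those of miR-99a-5p (0.962), miR-145-5p (0.961) and miR-100-5p (0.954). For miR-497-5p they were miR-669f-3p (0.973), miR-186-3p (0.963) and miR-467d-3p (0.932). miR-16-5p ran closest to miR-107-3p (0.923), miR-103-3p (0.921) and miR-148b-3p (0.901), and miR-15b-5p to miR-221-3p (0.942), miR-25-3p (0.928) and miR-365-3p (0.927). The nearest to miR-15a-5p were miR-18a-5p (0.926), miR-106b-5p (0.921) and miR-34b-5p (0.882).

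Cell type markers on the same arrays were summed by list. In the averaged comparison 15.8% of all miRNAs were higher and 12.1% lower in smoke. The endothelial pair miR-126-3p and miR-126-5p, which mark the lung vasculature, summed to between 27.2 and 37.0 times the array's 75th percentile in control and between 26.2 and 32.4 in smoke, and 1 of 2 was lower. Of the 5 leukocyte markers 1 was higher and 2 were lower, with sums of 7.04 to 10.24 in control and 5.11 to 10.75 in smoke. Of the 5 epithelial, 3 multiciliated and 5 mesenchymal markers 1 each was higher. Their sums were 5.89 to 7.41, 0.73 to 1.22 and 5.27 to 6.75 in control, and 6.23 to 8.44, 0.64 to 1.38 and 5.54 to 6.87 in smoke. Both erythroid markers on the array were measured and neither changed, with sums of 52.7 to 92.0 in control and 61.0 to 84.0 in smoke. No striated muscle marker passed the test, and their sum reached 6.79 in control and 7.18 in smoke, carried by 3 arrays. The liver marker miR-122-5p was at the floor on all control arrays and reached 2.97 on a 12 weeks smoke array. Within durations some of these sums did not overlap between smoke and control, with gaps in either direction counted. These were 3 of 8 lists at 4 weeks, 4 at 6, 0 at 8 and 5 at 12. Gaps without overlap were also found among all single miRNAs. Every smoke array lay above every control for 23.8% of them at 4 weeks. Every smoke array lay below every control for 3.3% at 6 weeks, 12.1% at 8 and 25.6% at 12. These shares cover 1 direction at each duration. The counts of lists take both directions, so the shares are no measure of them. Leukocyte sums were lower in smoke at 4 weeks (5.11 to 8.38 against 8.97 to 9.29), 6 weeks (6.40 to 6.78 against 7.04 to 9.02) and 12 weeks (6.05 to 7.59 against 8.74 to 10.24). Epithelial sums were higher in smoke at 4 weeks (6.74 to 8.44 against 5.89 to 6.60), 6 weeks (7.17 to 7.56 against 6.40 to 6.87) and 12 weeks (7.49 to 7.61 against 6.94 to 7.41). Multiciliated sums were lower in smoke at 4 weeks (0.64 to 0.996 against 1.09 to 1.22) and higher at 12 weeks (1.12 to 1.38 against 0.891 to 1.03). At 6 weeks the mesenchymal sums (6.46 to 6.69 against 5.27 to 6.34) and the striated muscle sums (1.47 to 1.99 against 0.848 to 0.987) were higher in smoke. At 12 weeks the erythroid sums were higher in smoke (71.99 to 76.5 against 61.9 to 67.3) and the endothelial sums lower (28.4 to 30.8 against 33.6 to 35.3). At 8 weeks every list overlapped between smoke and control. The part of these markers in the values of miR-195-5p and miR-497-5p was not tested.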

How the data were processed

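Per the file headers, the deposited spot intensity is scanner signal from which Feature Extraction 10.7.3.1 took the background, without scaling of arrays to each other; it also set the spot marks. The deposited series table holds log2 values that the authors normalized by a method the sources used here do not give. The scale and direction of this table were taken from its correlation with the scaled signals (0.981 to 0.985 per array, medians 2.71 to 2.85), and its centring is unknown.

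Control spots and outliers (297 to 655 per array) were left out and spots averaged by probe. Signals were scaled to the 75th percentile of the array, taken over 385 probes above background on all 31, set to a floor of −6.74 on the log2 scale, and the brightest probe stood for a miRNA. A miRNA was tested if detected (50% of a probe's spots above background) on 75% of a group's arrays: 273 were. limma 3.58.1 in R 4.3.3 was fitted on all 31 arrays with 23 residual degrees of freedom, checked on simulated data. Groups came from the titles and slides from the file headers. Replicate numbers were not taken to pair arrays: 7 of 15 same-numbered pairs had deviations correlated above 0.1 (range −0.21 to 0.41). No arrays were identical.

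The members, the related list and the markers were chosen with earlier results of these data known. The names printed are the members, the related list and the endothelial and liver markers. For each member, the 3 mouse miRNAs with the best correlated group means are also named. The other markers are given by list only. Alternatives covered scaling, background, floor, filter, probe summary, the deposited table, blocks and left-out arrays. The normexp alternative used median spot signals, since the files used here have no mean signal column.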

Additional observations from a re-analysis of the deposited data

Results flagged for a closer look

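For miR-16-5p, smoke array 2 at 6 weeks lay far above the rest of its group: it read 3.05 and the nearest array 2.66, a gap that is 0.883 of the group's range. This was 1 of 35 groups of 4 arrays looked at, and chance alone gives about 1 in 20. Without this array the 6 weeks difference of miR-16-5p, 0.07, became −0.04. The smoke effect on miR-195-5p differed between durations, with a limma adjusted p of 0.0218 over 31 arrays: it was 0.16 at 4 weeks and −0.47 at 12 weeks. As given above, this call ended without 4 weeks control array 4 (adjusted p 0.0518) and without 4 weeks smoke arrays 2 and 3. The 0.16 at 4 weeks was close to the median of all miRNAs at that duration, 0.17.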

How the results depend on the processing

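The averaged decrease of miR-497-5p passed the test under 15 of 16 alternatives and that of miR-195-5p under 14 of 16, each with the same direction throughout. Without scaling between arrays they were −0.44 (adjusted p 0.0856) and −0.35 (adjusted p 0.0986), so 0 members passed in place of 2, and with normexp background miR-195-5p had −0.17 (adjusted p 0.339), which left 1. Leaving out each array in turn gave −0.31 to −0.27 for miR-497-5p and −0.22 to −0.18 for miR-195-5p, with 2 members called each time. The averaged contrast between the clusters was −0.31 to −0.29 under its 12 alternatives and −0.32 to −0.29 over the left-out arrays. Scaling by all probes, no scaling and median centring cannot change this within-array contrast, so they are no check on it. The floor 4 times higher is none either, since the members lie above it.

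The averaged differences of the other members turned. Without scaling, miR-15a-5p, miR-15b-5p and miR-16-5p had −0.119, −0.0666 and −0.0878. With the scanner's summed signal miR-15a-5p had −0.0449 and miR-16-5p −0.0129. Centred on the median, an alternative chosen after seeing the data, miR-15a-5p had −0.0300. Without 4 weeks smoke arrays 2 and 3, miR-15a-5p had 0.0994 and passed (adjusted p 0.0394).

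The number of members called at 4 weeks (2 in the fit as reported) was 1 when scaled by all probes and with no detection filter, and 0 without scaling, with only the arrays of that duration, without smoke arrays 2 and 3, and without the 3 arrays highest in muscle miRNAs. With normexp it stayed 2, but these were miR-15b-5p and miR-16-5p. Over all 17 alternatives it ran from 0 to 3, and miR-16-5p passed in 2 of them. At 8 weeks (2) it was 1 when scaled by all probes, with only that duration's arrays and without 8 weeks smoke arrays 2 and 3 (chosen after seeing the data), 0 with normexp, and 4 without scaling, where 203 of 273 miRNAs passed (202 lower) in place of 30. At 12 weeks (2) it was 0 when scaled by all probes, without scaling and with normexp. Left-out arrays gave 0 to 3 at 4 weeks and 1 to 2 at 8 weeks. For a smoke effect differing between durations (1) it was 0 when scaled by all probes, with normexp and without the muscle-high arrays, 2 with the summed signal or the mean of all probes, 3 without scaling, and 0 to 3 over left-out arrays. Of all miRNAs 20 passed in the fit as reported, 133 without scaling, 93 with the summed signal and 0 with normexp. Among control durations (0) it was 3 when scaled by all probes, without scaling, with the summed signal and without 4 weeks smoke arrays 2 and 3, 1 in the deposited table, when centred on the median and without 8 weeks smoke arrays 2 and 3, and 0 to 2 over left-out arrays. Of all miRNAs 19 passed in the fit as reported, against 84, 151, 68 and 66 in the first of these groups of settings and 35, 37 and 40 in the other. Among smoke durations (0) it was 1 with quantile scaling, the summed signal, the deposited table and median centring (18, 12, 21 and 23 of all miRNAs in place of 9), and 0 to 1 over left-out arrays.

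Single differences that turned were all ones that did not pass. miR-15a-5p had 0.0361 at 4 weeks with normexp and 0.14 without smoke arrays 2 and 3, −0.00053 at 6 weeks when centred on the median, and at 8 weeks −0.80 without scaling, −0.11 with the summed signal, −0.0017 with normexp, −0.0632 when centred and −0.0338 without 8 weeks smoke arrays 2 and 3; left-out arrays gave −0.0267 to 0.0979 at 8 weeks. miR-15b-5p at 8 weeks had 0.0320 with quantile scaling, 0.0736 without the muscle-high arrays and 0.252 without 8 weeks smoke arrays 2 and 3 (−0.187 to 0.0736 over left-out arrays), and at 12 weeks 0.0649 when scaled by all probes, 0.0657 with quantile scaling, 0.243 without scaling and 0.0193 in the deposited table; left-out arrays gave −0.151 to 0.00977 at 6 weeks. miR-16-5p at 6 weeks had −0.00275 in the deposited table and −0.0566 when centred (−0.0396 to 0.113 over left-out arrays), at 8 weeks 0.0537 without smoke arrays 2 and 3, and at 12 weeks 0.140 when scaled by all probes, 0.188 with quantile scaling, 0.319 without scaling, 0.00874 with the mean of all probes, 0.168 in the deposited table and 0.0528 when centred (−0.0394 to 0.0365 over left-out arrays). The cause was not tested.

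With the replicate number as a block, which the design does not call for, miR-497-5p and miR-195-5p had averaged differences of −0.29 and −0.20, no member's call changed, and 71 miRNAs passed in place of 76. A slide block changed no member's call either. Over all miRNAs the 76 averaged calls (43 higher, 33 lower) became 29 without scaling (8 and 21), 12 with normexp, 45 with a floor 4 times higher, 101 with quantile scaling (47 and 54), 97 with the summed signal (32 and 65), 112 in the deposited table (46 and 66) and 95 when centred (33 and 62). At 4 weeks 108 became 17 without smoke arrays 2 and 3, and the median of all miRNAs moved from 0.17 to 0.06 when scaled by all probes, −0.76 with normexp, and at 8 weeks from −0.05 to −0.86 without scaling.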

Other observations

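The early and the late pattern of the family differ in which arrays carry them. On 4 weeks smoke array 2, miR-15b-5p was the highest of all 31 arrays (2.35), while miR-15a-5p (1.10) and miR-497-5p (0.72) were the lowest of all 31. The same array read 1.78 for miR-195-5p, the highest of its group, so the neighbours miR-195-5p and miR-497-5p lay at opposite ends of their group on 1 array. At 8 and 12 weeks both neighbours lay, on every smoke array, below every control of the same duration. The 8 weeks smoke group held another split: miR-15b-5p was high on arrays 1 and 4 (1.80 and 1.99) and low on arrays 2 and 3 (1.36 and 1.21). In this group miR-16-5p, miR-195-5p and miR-497-5p were also lowest on arrays 2 and 3.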
